A study of Mus musculus with 12 samples.

Results

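Afp, H19, Igf2, Dlk1, Gpc3, Cd44 and Golm1 are a set of 7 oncofetal liver genes, named for their activity in the fetal liver or in liver tumours. They were followed in liver RNA of mice on a steatohepatitis-inducing diet. The members were taken by name, as the gene probes whose accession maps to one of these 7 symbols among the 21613 symbols named on the array, and the question is whether the expression of fetal liver genes returns with feeding time. All mice were C57BL/6NJcl males, bought at 5 weeks of age and given 1 week to settle. The control groups then ate CE-2, a standard breeding chow, and the CDAHFD groups a high-fat diet (L-amino acid-defined and choline-deficient) with 60 kcal% fat and 0.1% methionine. Livers were taken after 1, 2 and 6 weeks, at 7, 8 and 12 weeks of age, and 150 ng of RNA per sample was labelled with Cy3 for 1-colour Agilent arrays. Each of the 6 groups held 2 arrays, 12 in all, so n = 2 stands behind every group value, which sets the precision. Whether the 2 replicates were separate mice is not given in the labels; if they were not, the p-values reflect technical spread between arrays alone.

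Alpha-fetoprotein, the product of Afp, is the main plasma protein of the fetal liver and a member of the albumin gene family; it is silenced after birth and rises again in liver regeneration and in hepatocellular carcinoma. H19, a long noncoding RNA transcribed from the maternal chromosome, and Igf2, a fetal growth factor transcribed from the paternal one, are imprinted neighbours that are abundant in fetal liver and shut down soon after birth. Dlk1, a Notch-related membrane protein, marks the hepatoblasts of the fetal liver. Gpc3 is a cell-surface heparan sulphate proteoglycan, Cd44 the main receptor for hyaluronan, and Golm1 a Golgi membrane protein; all 3 are used as markers of liver tumours.

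Within H19 lies the microRNA gene Mir675, which is cut from the H19 transcript. Its mature forms are shown because they are the known small RNA products of the member with the largest fitted differences between the diets. They were read from RefSeq on GRCm38.p6, minus strand, with the seed (bases 2 to 8) in capitals, and lie at chr7:142577112-142577133 and chr7:142577078-142577099.
mmu-miR-675-5p: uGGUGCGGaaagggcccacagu
mmu-miR-675-3p: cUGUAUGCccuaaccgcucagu
Their seeds differ from each other. The microRNAs were not measured here: the values below are those of the H19 transcript.

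Promoters were given for 6 of the 7 members, all except H19. Afp and Golm1 are shown because their levels followed a similar course over the arrays (below). The 250 bases before the RefSeq start are printed 5′ to 3′ on the gene's strand on GRCm38.p6, Afp from chr5:90490464-90490713 (plus strand) and Golm1 from chr13:59675785-59676034 (minus strand), with motif matches in capitals.
Afp: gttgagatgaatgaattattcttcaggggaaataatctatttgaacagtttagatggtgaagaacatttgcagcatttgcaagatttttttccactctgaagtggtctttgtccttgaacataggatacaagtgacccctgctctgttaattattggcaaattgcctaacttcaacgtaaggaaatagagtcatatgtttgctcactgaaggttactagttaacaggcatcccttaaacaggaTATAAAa
Golm1: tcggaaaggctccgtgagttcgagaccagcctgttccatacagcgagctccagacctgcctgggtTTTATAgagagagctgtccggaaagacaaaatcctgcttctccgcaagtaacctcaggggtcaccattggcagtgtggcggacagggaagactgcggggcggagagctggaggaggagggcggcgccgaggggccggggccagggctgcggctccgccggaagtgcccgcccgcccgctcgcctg
Both strands were searched for 4 motifs of general and liver transcription factors. For FOXA factors the motif was TGTTTAC. The HNF4 motif was CAAAGTCCA. For AP-1 it was TGACTCA, and the TATA box was TATAAA. A further planned motif, the HNF1 half-site GTTAAT, was left out of the search. Its letters stand in lower case in the Afp window above. The Afp window holds TATAAA at bases 7 to 2 before the start, and the Golm1 window holds TATAAA on the other strand at bases 185 to 180. Of 32851 RefSeq promoter windows of the same length, 12.4% hold TATAAA. The Afp window is 36% G and C with 1 CpG, and the Golm1 window 65.6% with 20 CpGs, against medians of 52.4% and 6 over all windows. The Dlk1 window holds TGTTTAC 2 times, a motif in 3.17% of windows. None of the 4 motifs was found in the windows of Gpc3, Cd44 or Igf2, which has 4 promoters in the table, and TGACTCA (4.46% of windows) and CAAAGTCCA (0.384%) were found in no member's window. A match or its absence describes these letters only.

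Levels are given as scaled intensities, the probe's background-subtracted signal after each array was brought to the same 75th percentile. A probe counts as detected on an array where the scanner software calls it well above background. The lowest detected signal was 11.8 to 17.8 on control arrays and 7.97 to 10.95 on CDAHFD arrays. Detection thus reached lower levels in CDAHFD, which limits any contrast of detected with undetected between the diets. Differences are log2 CDAHFD minus control with the standard error of the limma fit, relative to the median of all 13898 genes tested (0.13, 0.052 and 0.035 at 1, 2 and 6 weeks); the adjusted p tests the difference itself. They are therefore slightly smaller than the levels alone give. Arrays of weeks 1 and 2 shared a slide and those of week 6 lay on another, so the diets were compared within a slide. Week 6 against earlier weeks within a diet cannot be told apart from the slide. Control arrays lay in rows 1 and 3 of a slide and CDAHFD arrays in rows 2 and 4, so the diet cannot be told apart from the row. Of all genes, 25.9%, 22.9% and 24.5% were called higher in CDAHFD at 1, 2 and 6 weeks, and 15%, 14.9% and 16.2% lower. Higher calls made up 63.3%, 60.5% and 60.2% of all calls; this share was 79.5%, 74% and 69.5% with median centring and 36.1%, 39.3% and 38.1% with an all-probe percentile. On control replicate 1 of week 1, 382 spots lay at least 8-fold below all other arrays. The 11 blocks of the array rich in such dim spots held 1482 gene spots. Among these was 1 member's spot, that of a Cd44 probe described below. All 12 hepatocyte markers were measured, and all but Serpina1a were well above background on every array. On 1 CDAHFD array of week 2 the Serpina1a value was missing, since flagged outlier spots were left out. Its standard error was 0.2225 at 2 weeks against 0.1817 at 1 and 6 weeks.

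Afp, Cd44 and Golm1 were well above background on all 12 arrays. H19, Gpc3 and Dlk1 were so on 7, 9 and 3 arrays and entered the tests only through CDAHFD groups, so that their passing the filter already required a high CDAHFD level. Igf2 was on 0 of 12. Each of Afp, Cd44 and Golm1 was called higher in CDAHFD at 1, 2 and 6 weeks. H19 was called at all 3 weeks, Gpc3 and Dlk1 at 1 and 6 weeks, and no member was called lower. In calls higher this makes 6, 4 and 6 of the 7 members, to be read against the percentages of all genes above and against the filter.

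**Figure D1:**
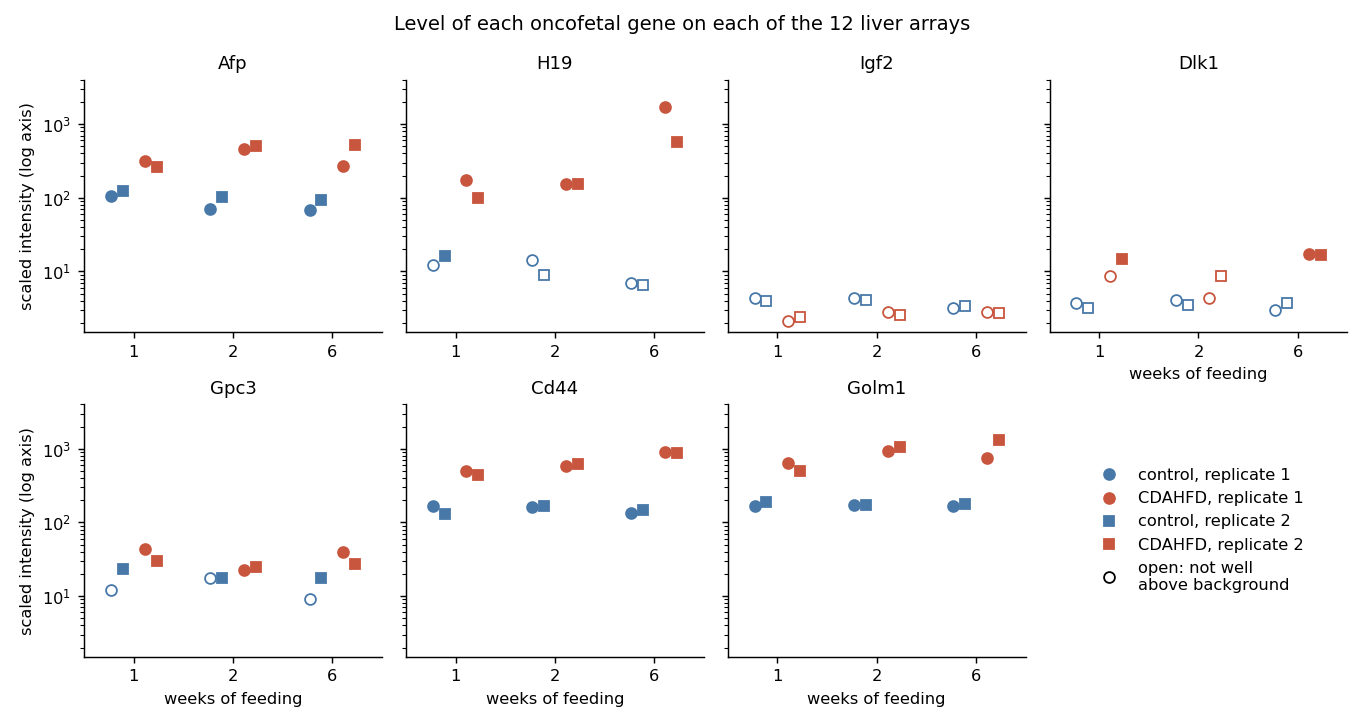
Scaled intensity (log axis) of each gene on every array against weeks of feeding, with circles for replicate 1, squares for replicate 2 and open symbols where the probe was not well above background. Afp, Cd44 and Golm1 are separated by diet at each week, H19 reaches 1690 and 566 in CDAHFD livers at 6 weeks, and Igf2 has open symbols on all 12 arrays.

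Afp rose in CDAHFD livers at each week, about 2.3-fold at 1 week and 4.5- to 5.5-fold later. On the control arrays its scaled intensity was 107 and 124 at 1 week, 69.5 and 102 at 2 weeks, and 68.3 and 94.5 at 6 weeks. On the CDAHFD arrays it was 315 and 265, then 454 and 512, then 267 and 518. The lowest CDAHFD array stood above the highest control array, and the 2 CDAHFD arrays of week 6 lay farther apart than those of any other group. The difference was 1.20 ± 0.30 at 1 week (adjusted p = 0.00622), 2.47 ± 0.30 at 2 weeks (adjusted p = 0.00013) and 2.18 ± 0.30 at 6 weeks (adjusted p = 0.00027). At 1 week the call was lost without CDAHFD replicate 1 of that week (1.10, adjusted p = 0.0558). The probe was printed at 10 places on each array, and the SD over these spots was 0.049 to 0.135 on the log2 scale; the week 6 replicates lay 0.95 apart.

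The course of Afp between weeks was not resolved. The diet difference was 0.91 ± 0.43 larger at 6 weeks than at 1 week (adjusted p = 0.245), a change that 5.38% of all genes passed. Within CDAHFD the adjusted p of the F test over the 3 weeks was 0.383, and within the controls 0.397, where 3.09% and 11.5% of all genes passed.

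Golm1 followed a course like that of Afp, with less spread among the controls. It read 168 and 188, 175 and 172, and 168 and 177 on the control arrays of weeks 1, 2 and 6. On the CDAHFD arrays the values were 641 and 499, 926 and 1068, and 742 and 1334. The 6 control arrays spanned a narrow range, and every CDAHFD array lay far above it. Golm1 differed by 1.54 ± 0.23 at 1 week (adjusted p = 0.00042), 2.47 ± 0.23 at 2 weeks (adjusted p = 2.5e-05) and 2.49 ± 0.23 at 6 weeks (adjusted p = 1.9e-05). Its difference was 0.89 ± 0.33 larger at 6 weeks than at 1 week, which did not pass (adjusted p = 0.157) but did without CDAHFD replicate 1 of week 6 (1.29, adjusted p = 0.018). As with Afp, replicate 2 of that group was the higher one.

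Cd44 rose at each week, with the largest difference at 6 weeks. The gene was read by the probe with the highest mean of its 4, which gave 168 and 129, 164 and 166, and 135 and 147 on the control arrays. On the CDAHFD arrays it gave 504 and 434, then 576 and 620, then 907 and 862. Replicates stayed close and the diets did not overlap. The difference was 1.54 ± 0.15 at 1 week (adjusted p = 2.5e-05), 1.80 ± 0.15 at 2 weeks (adjusted p = 8.5e-06) and 2.61 ± 0.15 at 6 weeks (adjusted p = 9e-07).

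Within CDAHFD, the Cd44 level was 0.92 ± 0.15 higher at 6 weeks than at 1 week (adjusted p = 0.00717), a change that cannot be told apart from the slide. An additive slide effect cancels in the change of the diet difference, which was 1.01 ± 0.21 from 1 to 6 weeks (adjusted p = 0.0282). That call rested on the probe and the arrays used. A further probe, which read 54.1 and 50, 66.6 and 54.8, and 51.1 and 55.1 in controls, gave 239 and 213, 328 and 323, and 399 and 306 in CDAHFD livers. Its differences were 2.07, 2.44 and 2.73 ± 0.17 at the 3 weeks, all called, but its change from 1 to 6 weeks was 0.60 ± 0.24 (adjusted p = 0.182). The spot of this further probe lay in a dim block of control replicate 1 of week 1, where it read close to replicate 2. The change of the first probe was also lost without any 1 of 7 arrays, with values of 0.83 to 1.10 there, and the F test over the 3 weeks gave an adjusted p of 0.0559. The other 2 probes of Cd44 were well above background on 2 arrays and 1 array of the 12.

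**Figure D2:**
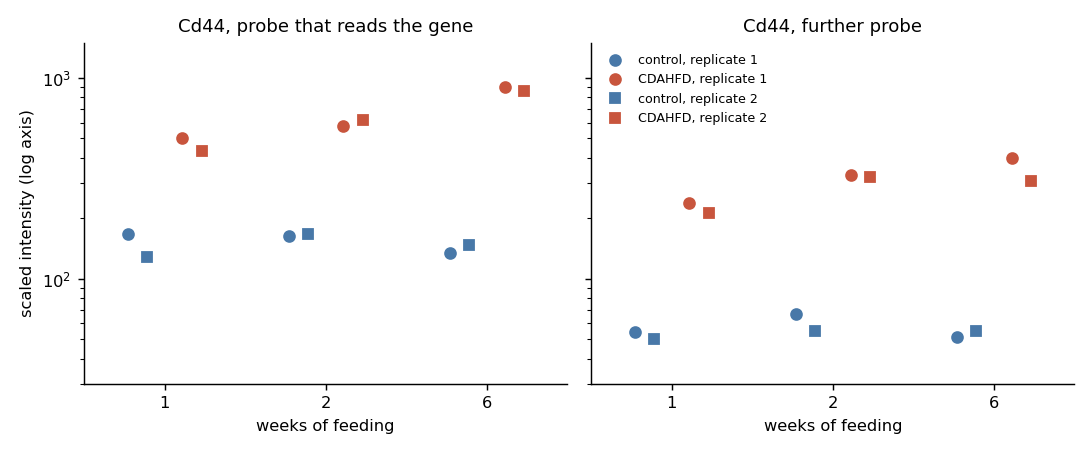
Scaled intensity (log axis) of the 2 detected Cd44 probes on each array against weeks of feeding, with circles for replicate 1 and squares for replicate 2. Both probes separate the diets at each week; the left one reaches 907 and 862 in CDAHFD livers at 6 weeks, and the right one, at 399 and 306, differs less between 2 and 6 weeks.

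H19 went from about the detection limit in control livers to a clear signal in CDAHFD livers. On the control arrays it read 12.2 and 16 at 1 week, 14.1 and 8.90 at 2 weeks, and 6.95 and 6.55 at 6 weeks, and it was well above background on only 1 of these 6, replicate 2 of week 1. On the CDAHFD arrays it read 176 and 99.8, then 156 and 153, then 1690 and 566, all well above background. Every CDAHFD array stood above every control array, and both arrays of week 6 stood above all earlier ones, with replicate 1 higher than replicate 2.

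The H19 difference was 3.12 ± 0.47 at 1 week (adjusted p = 0.00056), 3.73 ± 0.47 at 2 weeks (adjusted p = 0.00019) and 7.15 ± 0.47 at 6 weeks (adjusted p = 3.3e-06). Since the controls of 2 and 6 weeks were not well above background, only a bound holds there: H19 was at least 10.1-fold higher at 2 weeks and at least 74.2-fold higher at 6 weeks. These bounds set the CDAHFD mean against the higher of the control probe's own signal and the lowest signal of any probe well above background on that array. With normexp background correction, which lifts dim signals, the differences were 0.88 (adjusted p = 0.302), 1.31 (adjusted p = 0.13) and 3.82 (adjusted p = 0.00092), so that only the call at 6 weeks held.

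The fitted diet difference of H19 was 3.96 ± 0.66 larger at 6 weeks than at 1 week (adjusted p = 0.0157). Its size is not exact: the controls were well above background on 1 of 2 arrays at 1 week and on 0 of 2 at 6 weeks, where they read -1.07 against 1 week on the log2 scale, and the gene passed the filter only through CDAHFD groups. An F test over the 3 weeks gave an adjusted p of 0.0292, which 2.39% of all genes passed. The step from 1 to 2 weeks was 0.56 ± 0.66 (adjusted p = 0.717) and that from 2 to 6 weeks 3.38 ± 0.66 (adjusted p = 0.347). Within CDAHFD the level was 2.89 ± 0.47 higher at 6 weeks than at 1 week (adjusted p = 0.00891), a step that cannot be told apart from the slide, while the controls did not pass (F test, adjusted p = 0.281). The change from 1 to 6 weeks lost its call, at values of 3.57 to 4.02, without CDAHFD replicate 2 of week 1 (adjusted p = 0.0524), control replicate 1 of week 6 (0.0622) or control replicate 2 of week 6 (0.0532), and with normexp (2.87, adjusted p = 0.0611).

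Igf2, the paternally expressed neighbour of H19, was not detected. Its 1 probe read 2.12 to 4.41 over the 12 arrays and was well above background on none, at 6 weeks 3.21 and 3.38 in controls and 2.78 and 2.74 in CDAHFD livers. The lowest signal of any detected probe was 11.8 to 17.8 on the control arrays and 7.97 to 10.95 on the CDAHFD arrays. Below these levels nothing can be said of Igf2. In the RefSeq gene order by position, 1 gene lies between H19 and Igf2 besides Mir675, which lies within H19.

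Dlk1, the membrane protein of hepatoblasts, was at the edge of detection and only in CDAHFD livers. Of its 2 probes, 1 was well above background on no array. The other read 3.77 and 3.19, 4.11 and 3.46, and 2.99 and 3.75 in controls, none of them detected. In CDAHFD livers it read 8.58 and 14.6 at 1 week, of which the second was detected, 4.42 and 8.71 at 2 weeks, neither detected, and 17.3 and 16.9 at 6 weeks, both detected. The fitted difference was 1.56 ± 0.45 at 1 week (adjusted p = 0.0132), 0.67 ± 0.45 at 2 weeks (adjusted p = 0.237) and 2.32 ± 0.45 at 6 weeks (adjusted p = 0.00202). As a bound, Dlk1 was at least 1.30-fold higher at 6 weeks, and no fold is given at 1 and 2 weeks. The call at 1 week was lost without CDAHFD replicate 2 of that week (1.14, adjusted p = 0.0994). With normexp the sign turned at 1 and 2 weeks (-0.48 and -0.35, not called) and the difference was 0.068 at 6 weeks (adjusted p = 0.978).

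Meg3, the maternally expressed noncoding RNA beside Dlk1, was far easier to see. It stands first in the list of imprinted genes, and its probe read 41.1 and 21.3, 101 and 88.5, and 166 and 105 in controls against 651 and 836, 729 and 1275, and 1252 and 3528 in CDAHFD livers. All 12 arrays detected it, and the diets did not overlap. The difference was 4.51 ± 0.54 at 1 week (adjusted p = 0.00042), 3.30 at 2 weeks (adjusted p = 0.0019) and 3.96 at 6 weeks (adjusted p = 0.00068). Its 2 further probes disagreed: at 1 and 6 weeks, 1 gave 4.10 and 3.71, and the other -0.34 and 1.68. Neither gives an exact size at 1 week, since the first was undetected on both controls there (3.73 and 6.13) and the second was near the detection limit on all arrays.

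**Figure D3:**
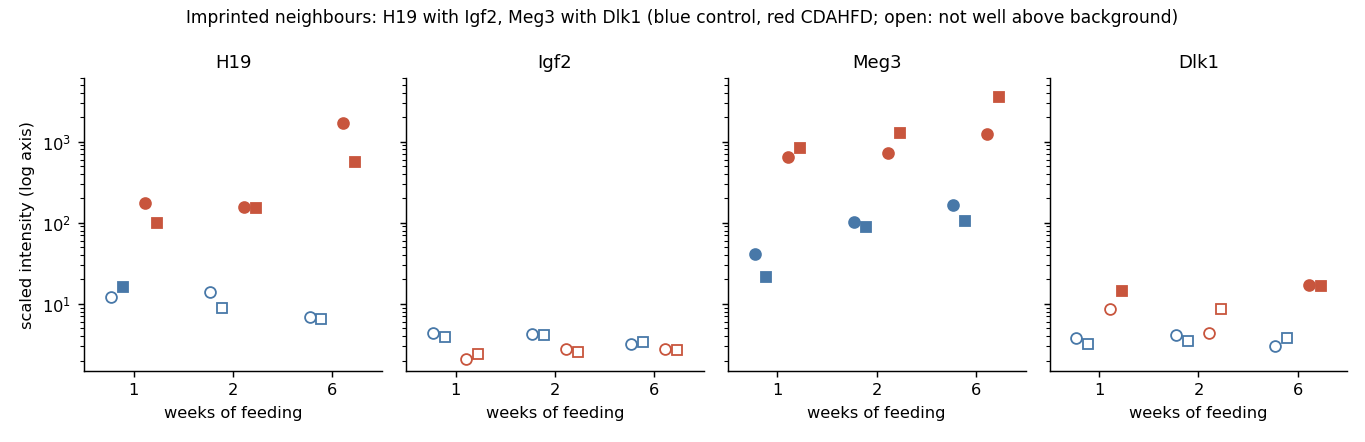
Scaled intensity (log axis) of H19, Igf2, Meg3 and Dlk1 on each array against weeks of feeding, with blue for control, red for CDAHFD and open symbols where a probe was not well above background. H19 and Meg3 are detected on all 6 CDAHFD arrays, Igf2 on none and Dlk1 on 3.

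Gpc3 showed the least separation of the measured members. Its controls read 12.3 and 23.4, 17.8 and 17.6, and 9.27 and 17.5, of which replicate 1 was undetected at each week. The CDAHFD arrays read 43.5 and 30.1, 22.7 and 24.9, and 39.9 and 27.2, all detected. The groups of a week did not overlap, but 1 control of week 1 stood above 1 CDAHFD array of week 2. The difference was 0.96 ± 0.40 at 1 week (adjusted p = 0.0485), 0.38 ± 0.40 at 2 weeks (adjusted p = 0.43) and 1.33 ± 0.40 at 6 weeks (adjusted p = 0.0187). The call at 1 week lay at the threshold: of 26 alternatives, 15 lost it and 1 turned its sign. Among them it was lost without any 1 of 7 arrays, down to 0.51 (adjusted p = 0.294) without control replicate 1 of that week. At 6 weeks it was lost without control replicate 1 (0.88, adjusted p = 0.154) or CDAHFD replicate 1 (1.03, adjusted p = 0.101) of that week, with quantile normalization (1.24, adjusted p = 0.0674), and with the arrays of that week alone (1.33, adjusted p = 0.0507). With normexp the sign turned at 1 and 2 weeks (-0.25 and -0.23, not called), and the call at 6 weeks was lost (0.21, adjusted p = 0.758). Its change from 1 to 6 weeks was 0.31 ± 0.56 (adjusted p = 0.804), and that of Dlk1 0.69 ± 0.64 (adjusted p = 0.56).

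**Figure D4:**
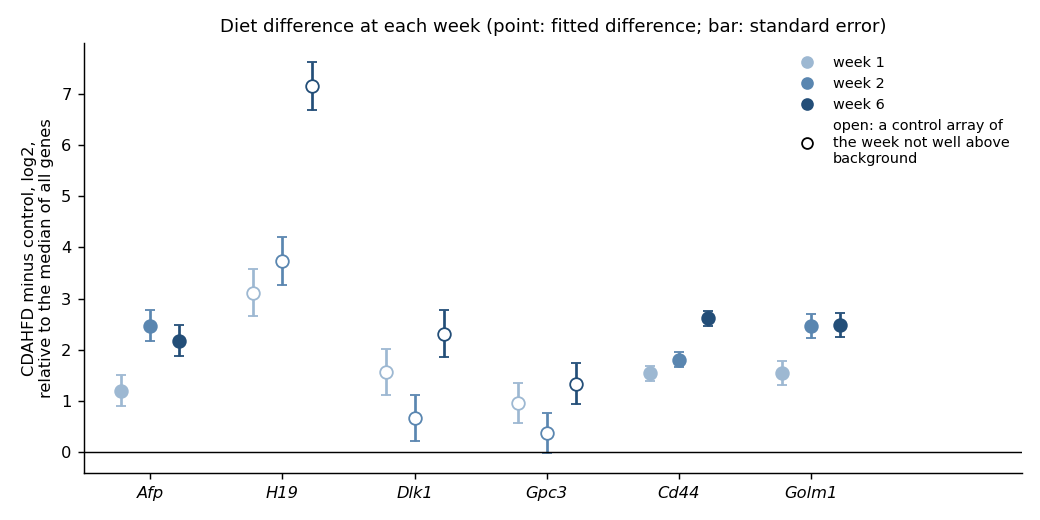
Diet difference (log2 CDAHFD minus control, less the median over all genes) of the 6 measured genes at weeks 1, 2 and 6, as points with the standard error as bars; open points mark weeks in which a control array was not well above background. H19 stands at 3.12, 3.73 and 7.15, and Gpc3 at 2 weeks, at 0.38, lies nearest to 0.

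The genes whose levels ran most like those of each member, by Pearson correlation over the 12 arrays, are given as a description; the arrays fall into the 2 diets, which sets much of each correlation. For Afp they were Spats2l (0.990), Tspan3, a tetraspanin (0.988), and Maged2 (0.987). For Golm1 they were Ptgr1, a prostaglandin reductase (0.993), the annexin Anxa5 (0.993) and Phlda3 (0.992). Cd44 ran with Glipr1 (0.997), Gm5547 (0.997) and Sirpa, a receptor of myeloid cells (0.997). Of the genes named so far here, all were detected on all 12 arrays except Gm5547, detected on 6.

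H19 ran most closely with Mustn1 (0.988), the transporter Slc22a27 (0.983) and Fam180a (0.980). Mustn1 was detected on all 12 arrays and differed by 0.67, 1.32 and 2.06 at 1, 2 and 6 weeks. Slc22a27 and Fam180a were each detected on 6 arrays. Values for the dim members were lower. Gpc3 ran with the collagen-binding integrin Itga11 (0.922), Cbr2 (0.918) and Dynll1 (0.901), detected on 9, 7 and 6 arrays. Dlk1 ran with the serotonin receptor Htr2b (0.947), Dtx3 (0.936) and Soga1 (0.925), detected on 3, 5 and 12 arrays.

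Companion genes were read from lists around each member. The list of regulators of Afp and of the hepatocyte programme had 2 higher and 4 lower calls at 1 week, 1 and 7 at 2 weeks, and 1 and 8 at 6 weeks, of 19 measured. Its median difference was -0.29, -0.53 and -0.43, against 0 over all genes. Zhx2, a repressor that shuts Afp down after birth, was not measured, and Zbtb20, another such repressor, gave 0.51 ± 0.35, -0.25 and -0.24 (adjusted p = 0.18, 0.701 and 0.684). Hepatocyte factors fell: Cebpa by 0.66, 0.77 and 0.90 at the 3 weeks, and Hnf4a by 0.78 and 0.54 at 1 and 2 weeks. Hnf4a at 6 weeks was at -0.32 (adjusted p = 0.0551). Nr2f2 fell by 1.01 at 6 weeks. The number of lower calls in this list depended on scaling, from 1 with median centring to 9 with the percentile over all probes at 1 week, 3 to 11 at 2 weeks and 3 to 10 at 6 weeks.

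Of the 3 other genes of the albumin family, 3, 2 and 2 were called lower at 1, 2 and 6 weeks and 0 higher, but with quantile normalization 1 was called lower at each week and 0, 1 and 1 higher. Alb fell by 1.30 ± 0.18 at 1 week (adjusted p = 0.00065) and stood at -0.22 and -0.029 at 2 and 6 weeks (adjusted p = 0.491 and 0.985). Its value at 1 week was as small as -0.36 under the other scalings, and its sign at 2 and 6 weeks turned with quantile normalization and normexp, up to 0.42 and 0.43. Gc, the vitamin D-binding protein, fell by 0.71, 0.84 and 0.55, although its sign at 1 week turned to 0.012 with quantile normalization. Afm, which lies next to Afp, fell by 0.62, 0.99 and 0.90.

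In the insulin-like growth factor list, 3, 3 and 4 of 14 measured genes were called higher and 2, 4 and 3 lower. Its median was 0.22, -0.45 and 0.36. With normexp 1 gene was called higher at each week, and lower calls reached 3, 6 and 4 with the all-probe percentile. Igf1, the growth factor made by the adult liver, fell by 1.47, 1.12 and 0.78, and Igfals, which carries it in plasma, by 0.90, 1.25 and 1.38. The receptors Igf1r (0.75, 1.01 and 1.03) and Igf2r (0.38, 0.37 and 0.37) rose. Igf2bp2, an RNA-binding protein, rose by 0.93 ± 0.23 at 1 week, where its sign turned with normexp (-0.15). At 2 and 6 weeks no control array detected it, and it was at least 3.45- and 5.43-fold higher. Its relatives Igf2bp1 and Igf2bp3 were not measured.

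Of 15 measured imprinted genes, 8, 6 and 8 were called higher and 2, 1 and 2 lower, with medians of 0.38, 0.46 and 0.63; with normexp 5, 6 and 5 were higher, and with the all-probe percentile 6, 4 and 5. Beside Meg3, Plagl1, a zinc finger factor of an imprinted network, rose by 1.82, 1.18 and 1.85, and Impact by 1.56, 0.61 and 0.63. Peg3 was detected on no control array, and at 2 and 6 weeks on only 1 of 2 CDAHFD arrays. It was at least 1.82-fold higher at 1 week, and no fold is given at 2 and 6 weeks. Its fitted differences were 2.89 (adjusted p = 0.00065), 0.99 (adjusted p = 0.103) and 1.72 (adjusted p = 0.0119). With normexp that at 1 week was -0.077, and that at 6 weeks was as small as 0.028 under the other scalings. Slc38a4, an amino acid transporter, fell by 0.53, 0.99 and 0.82. Dcn, a matrix proteoglycan of fibroblasts, rose by 0.50, 0.83 and 1.42.

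Among the relatives and enzymes of glypicans, 2, 3 and 4 of 16 were called higher and 4 each week lower, with medians of -0.22, -0.24 and -0.26. The lower calls depended on scaling, from 0, 2 and 1 with median centring to 7, 7 and 8 with the all-probe percentile. Gpc1 rose by 1.53, 2.15 and 1.79, and Gpc4 stood at -0.15, -0.36 and -0.086 (adjusted p = 0.927, 0.0817 and 0.786). Sulf1, which trims heparan sulphate, rose by 1.36 ± 0.38 at 1 week and 2.50 at 6 weeks, and stood at 0.98 at 2 weeks (adjusted p = 0.0569). The syndecan Sdc2 fell by 0.51, 1.00 and 0.91.

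The hyaluronan and CD44 list had 6, 8 and 8 higher and 3, 2 and 3 lower calls of 18 measured, with medians of 0.14, 0.13 and 0.23; with the all-probe percentile 4, 5 and 5 were lower. Spp1, the CD44 ligand osteopontin, rose by 0.96, 2.17 and 2.77, Msn, which ties CD44 to actin, by 1.34, 1.57 and 1.84, and Srgn, the serglycin core protein, by 1.10, 1.38 and 1.18. Rdx, a relative of Msn, fell by 0.67, 0.83 and 1.08. Esrp2, the epithelial splicing factor that acts on Cd44 transcripts, fell by 0.89, 0.96 and 1.22. The hyaluronan synthases Has1, Has2 and Has3 were not measured.

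In the Notch list around Dlk1, 3, 5 and 4 of 16 were called higher and 1, 0 and 0 lower, with medians of 0.027, 0.038 and -0.029. These counts depended on scaling: normexp gave 0, 0 and 3 higher and 4, 0 and 1 lower, and the all-probe percentile 1, 4 and 3 higher and 3 lower at each week. The target Hey1 rose by 1.74 and 2.11 at 2 and 6 weeks after 0.19 at 1 week (adjusted p = 0.266). Notch3, the receptor of mural cells, rose by 0.56, 0.48 and 1.26, while Notch1, Notch2 and Jag1 passed at no week, with differences of -0.69 to 0.17.

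The Golgi list around Golm1 had 6, 2 and 2 higher and 1, 0 and 1 lower calls of 14 measured, with medians of 0.15, 0.0013 and 0.012; with normexp 4, 1 and 1 were higher. The Golgi tether proteins Golga4 (0.80) and Golgb1 (0.74) rose at 1 week and stood at 0.046 and 0.11 at 2 weeks (adjusted p = 0.455 and 0.35). Golm2, the closest relative of Golm1, rose by 0.71 at 1 week, where normexp gave -0.094, and stood at 0.37 and 0.54 later (adjusted p = 0.191 and 0.0801). Glg1 rose by 0.29, 0.41 and 0.57.

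Other progenitor and liver tumour markers were called higher in 13, 13 and 16 of 25 and lower in 2, 1 and 2, with medians of 0.82, 1.00 and 1.59. Ly6d rose by 5.18, 6.58 and 6.68, and Anxa2 by 2.75, 3.60 and 3.74. Pkm, the pyruvate kinase of fetal and proliferating tissue, rose by 1.78, 2.54 and 2.92. The lower calls were Gstp1 at each week (-1.35, -1.17 and -0.96), Sall4 at 1 week (-1.13, adjusted p = 0.0238) and Lin28a at 6 weeks (adjusted p = 0.0408). Lin28a was at least 1.83-fold lower there, where no CDAHFD array detected it. Hmga2 passed at no week, and Lin28b was not measured. Epcam, a surface protein of ducts and progenitors, rose by 1.31 at 6 weeks alone among the weeks tested, after 0.20 and 0.064 (adjusted p = 0.402 and 0.796). Sox9 passed at no week (-0.76, 0.18 and 0.057; adjusted p = 0.0512, 0.468 and 0.785).

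Of the fetal blood cell list, 6 of 11 genes were measured, with 3, 2 and 2 called higher, 0, 0 and 1 lower, and medians of 0.40, 0.11 and -0.070. The embryonic globins Hbb-bh1, Hbb-y and Hba-x were not measured. Cd34 (1.56, 2.12 and 2.15) and Lyl1 (1.78, 1.97 and 1.87) rose, and Epor fell by 0.60 at 6 weeks.

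**Figure D5:**
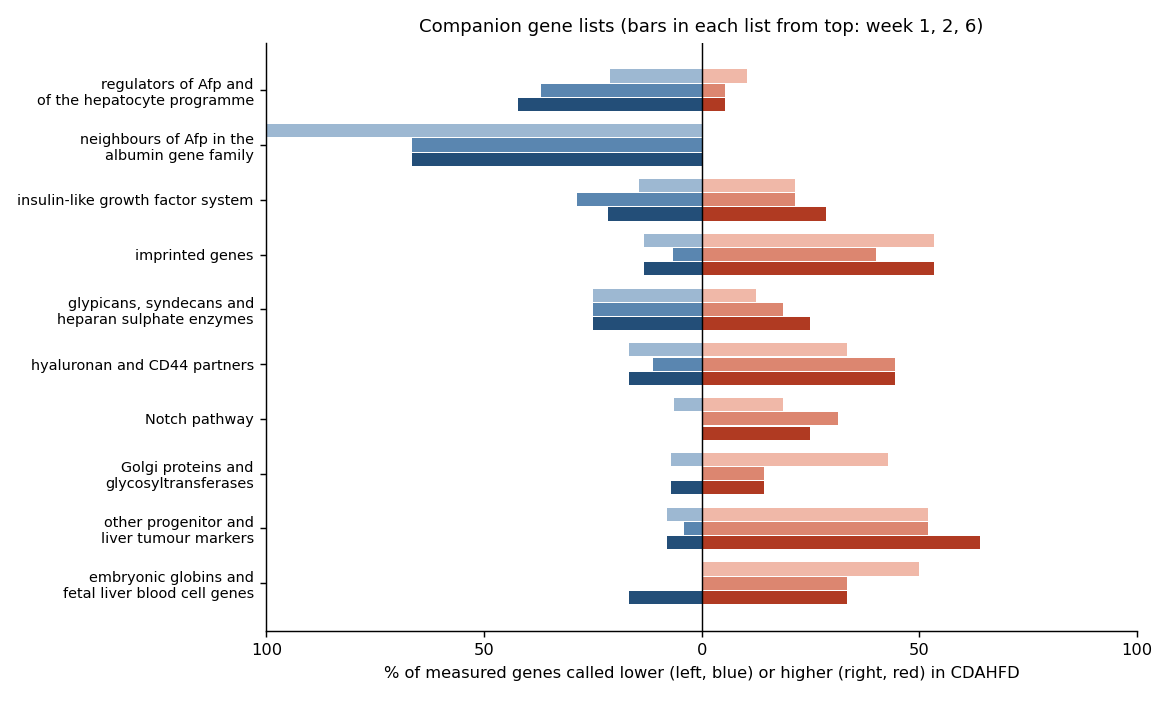
Share of the measured genes of each companion list called higher (right, red) or lower (left, blue) in CDAHFD livers at weeks 1, 2 and 6, from light to dark. Over all genes 25.9%, 22.9% and 24.5% were called higher and 15%, 14.9% and 16.2% lower; progenitor and tumour markers reach 16 of 25 higher at 6 weeks, and the albumin neighbours have 0 higher calls with the scaling plotted, against 0, 1 and 1 with quantile normalization.

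Markers of several cell populations also differed between the diets. In bulk RNA, fewer or more cells of a type cannot be told apart from less or more RNA per cell. Macrophage and monocyte markers were called higher in 9, 11 and 11 of 13, and their summed scaled intensity was 7403 to 14260 on control arrays and 29310 to 63730 on CDAHFD arrays. Stellate cell and myofibroblast markers were higher in 9, 8 and 8 of 12 (2100 to 4254 against 13950 to 22170), and dividing cell markers in 12, 12 and 11 of 12 (431 to 678 against 2366 to 5459), or 5, 9 and 8 with normexp. Hepatocyte markers were lower in 11, 8 and 5 of 12. On control arrays they summed to 878600 to 1061000, 692700 to 781300 and 598000 to 642800 at 1, 2 and 6 weeks. On CDAHFD arrays the sums were 470200 to 565300, 371700 to 484400 and 463900 to 508800. The control sums were thus lower at each later week, and week 6 cannot be told apart from the slide. The count of lower calls ran from 4, 2 and 1, with 0, 1 and 1 higher, under quantile normalization to 12, 11 and 10 with the all-probe percentile. At 1, 2 and 6 weeks these shifts stood beside higher calls of Afp, H19, Cd44 and Golm1. Gpc3 and Dlk1 were called at 1 and 6 weeks but not at 2 weeks (adjusted p = 0.43 and 0.237).

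Cholangiocyte markers were called higher in 1, 1 and 4 of 9. They summed to 370 to 549 on control arrays and to 626 to 969, 1120 to 1391 and 2065 to 2304 at 1, 2 and 6 weeks of CDAHFD. With normexp 1, 1 and 2 were higher and 4, 0 and 0 lower. Mesothelial markers were called higher in 1, 1 and 3 of 4, with medians of 0.70, -0.36 and 1.97. They summed to 70.4 to 224 on control arrays and to 231 to 328, 156 to 168 and 313 to 358 in CDAHFD livers. At 2 weeks the controls summed to 147 to 169, so the diets overlapped there. With normexp 0, 0 and 2 were higher. Endothelial markers were called higher in 1 of 10 at each week and lower in 0, 0 and 5, or 3, 4 and 7 with the all-probe percentile. Of the markers of blood cells, T and NK cells had 6 higher of 10 at each week and 2, 0 and 0 lower, B and plasma cells 5, 2 and 2 higher of 6, and neutrophils 2, 3 and 4 higher and 2, 1 and 1 lower of 9. With normexp the higher calls were 1, 2 and 3 for T and NK cells, 1 at each week for B and plasma cells and 2 at each week for neutrophils. Erythroid markers fell in 4 of 6 at each week (18320 to 23950 against 6750 to 9866), or 3, 3 and 2 with median centring. Defining markers not measured included Ly6c2, Ngp, Cd8a, Trac, Cd79a, Pax5, Muc1, Lrrn4, Upk1b and Gata1. The part of any of these populations in the members' differences was not tested.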

How the data were processed

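The deposited files hold linear spot intensities written by Agilent Feature Extraction; background subtraction and spatial detrending had been applied within arrays and no scaling across arrays, per the file headers. The version is unsettled: 11.5.1.1 per the file headers, 10.7 per the submitters' processing notes. Control spots and flagged outlier spots were left out, and repeat spots of a probe were averaged on the log2 scale. Accessions were named through the RefSeq table of GRCm38.p6, used for names and gene order (28664 of 55681 probes named). From each array its 75th percentile was subtracted, taken over the 20135 probes detected (well above background) on every array. A gene entered the tests if any probe was detected on both arrays of 1 or more groups, and was read by the probe with the highest mean.

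Differences were tested with limma 3.58.1 in R 4.3.3 (lmFit and eBayes with trend and robust) on 6 group means over 12 arrays, with 6 residual degrees of freedom, 2-sided, adjusted by Benjamini-Hochberg over 13898 genes, threshold 0.05. The script was tested on simulated data. No pairing by replicate number was modelled in these tests. All members are named, and of each list the first 3 genes where measured and up to 3 passing genes of lowest adjusted p (examples are given, and some results are not reported here); for each member, its 3 most correlated genes. In the progenitor and tumour marker list, the lower calls and Hmga2 are named too. The members and lists were chosen with earlier results of these data known.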

Additional observations from a re-analysis of the deposited data

Results flagged for a closer look

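The diet difference of 2 members was larger at 6 weeks than at 1 week by limma's interaction test. For H19, the change was 3.96 ± 0.66 on the log2 scale (adjusted p = 0.0157). It rests on controls that were well above background on 1 of 2 arrays at 1 week and 0 of 2 at 6 weeks, and H19 passed the filter only through CDAHFD groups, so the size is not exact. For Cd44, it was 1.01 ± 0.21 (adjusted p = 0.0282) by the probe that reads the gene and 0.60 ± 0.24 (adjusted p = 0.182) by its further probe.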

How the results depend on the processing

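The diet differences of the 6 measured members kept their direction and their side of the threshold in 436 of 465 results over the alternatives. Another 25 lost their call, and 4 turned sign, all with normexp: Gpc3 (-0.25 and -0.23) and Dlk1 (-0.48 and -0.35) at 1 and 2 weeks. Of the changes between weeks, 178 of 195 kept both, 13 lost their call, 2 gained one, and 2 turned sign, those of Gpc3 from 1 to 6 weeks without control replicate 2 of week 1 (-0.19) or control replicate 1 of week 6 (-0.14), in a range of -0.19 to 0.78 over the arrays left out. Afp at 2 and 6 weeks and Cd44 and Golm1 at all 3 weeks kept their calls under every alternative run for them. With normexp 3 members were called higher at 1 week and 4 at 6 weeks. At 1 week, 3 were called with only probes detected on all arrays, a filter that keeps 3 members by construction and gave 3 at 6 weeks too. Leaving out 1 array gave 4 to 6 members at 1 week, 4 at 2 weeks and 5 to 6 at 6 weeks; the lone array left in a group is then assumed to vary like the other groups. For the change from 1 to 6 weeks, the count of 2 members became 1 with median centring, normexp, the filter on all arrays or the mean of a gene's probes, and 0 to 3 without 1 array. The cause was not tested. The deviations of same-numbered arrays correlated at -0.14 to 0.22 over 15 pairs of groups, above 0.1 in 4. This does not settle whether the numbers pair samples. Replicate 1 lay in column 1 of its slide and replicate 2 in column 2 in every group. With the replicate block 5, 4 and 6 members were called higher, and Gpc3 at 1 week lost its call (0.96, adjusted p = 0.057). A probe-level fit, chosen after seeing the data, changed 1 call, Gpc3 at 1 week (1.04, adjusted p = 0.05).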
